A study of Mus musculus with 11 samples.

Results

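The 10 genes described here carry glucose into the cell, commit it to glycolysis, turn pyruvate into lactate and export the lactate. They are the glucose transporters Slc2a1 and Slc2a3, the hexokinases Hk1 and Hk2, the phosphofructokinases Pfkp and Pfkl, the phosphofructokinase regulator Pfkfb3, lactate dehydrogenase Ldha, and the monocarboxylate transporters Slc16a1 and Slc16a3. They were chosen by symbol, and all 10 have an Ensembl identifier among the 21957 genes of the count table. The cells were primed mouse OT1 cells, CD8 T cells whose transgenic receptor recognises an ovalbumin peptide. The 2hr cells had spent 2 h with beads against CD3 and CD28, and the T0 cells were unstimulated. Cells of both groups then received cycloheximide, which arrests translating ribosomes, for 10 min. RNA was sequenced in 3 libraries of 2hr cells and 3 of T0 cells. Ribosome footprints, the stretches of mRNA covered by ribosomes, were sequenced in 2 libraries of 2hr cells (replicates 2 and 3) and 3 of T0 cells. A footprint replicate 1 of 2hr cells was not analysed here. The labels do not say how the cells were primed, how old the mice were, or whether replicates came from separate animals or cultures, and the p-values therefore reflect only how far these samples spread. All OT1 cells share a single receptor specificity, and the beads stand in for antigen.

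Glucose enters T cells through facilitative transporters of the Slc2a family, and hexokinase traps it by adding a phosphate. Phosphofructokinase makes the committed step of glycolysis, and Pfkfb3 makes the allosteric activator that speeds it. Lactate dehydrogenase regenerates the cofactor that glycolysis consumes, and monocarboxylate transporters carry the lactate out together with a proton. Activated T cells are known for a switch to high glucose uptake and lactate output, with Slc2a1 and Hk2 as the textbook inducible members.

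RNA libraries held 21658263 to 39346699 counts and footprint libraries 11136 to 23641. All 9 T cell markers were detected in RNA, Cd8a and Cd8b1 among them, with a summed level of 5022 to 7580 CPM (counts scaled to library size with TMM factors) in 2hr and 6637 to 7690 CPM in T0 libraries. None of the 9 passed in edgeR, 3 had an unadjusted p under 0.05, DESeq2 called Cd3d, Cd3e, Cd3g and Cd8b1 lower in 2hr, and the fit on genes of at least 10 CPM called 5 lower and 1 higher. Over all genes, DESeq2 called 23.2% lower and 3.2% higher, and that fit called 36.4% lower and 36.9% higher. The 5 B cell markers summed to 6.34 to 11.2 CPM in 2hr and 4.63 to 10.5 CPM in T0 libraries, and the 3 natural killer cell markers to 1.84 to 2.82 CPM in 2hr and 0.780 to 1.52 CPM in T0 libraries. The 7 myeloid markers summed to 18.3 to 21.7 CPM in 2hr and 13.6 to 19.6 CPM in T0 libraries, and the 4 erythroid markers to 2.14 to 4.10 CPM in 2hr and 4.58 to 5.59 CPM in T0 libraries. The 4 helper and regulatory T cell markers summed to 30.9 to 39.6 CPM in 2hr and 21.8 to 23.2 CPM in T0 libraries. Of the markers of other cell types, Cd40lg passed the test as higher in 2hr and Alas2 as lower. In bulk samples, fewer cells of a type and less RNA per cell cannot be told apart. Counts on just 4 genes, namely Lars2, Gm20594, Gm10801 and Gm10800, made up 12.8 to 25.0% of the RNA counts in 2hr and 4.09 to 14.9% in T0 libraries. Olfactory, vomeronasal and defensin genes, 1541 in all, held 0.0686 to 0.276% in 2hr and 0.0300 to 0.189% in T0 libraries. The part of these shares in the results was not tested. For each of the 10 genes a fit that uses only genes of at least 10 CPM is given too.

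Of 18886 genes tested in RNA, 1560 (8.26%) passed an adjusted p of 0.05 in edgeR's quasi-likelihood test, 3.58% higher and 4.68% lower in 2hr. The split moved with the scaling: 43.4% of the calls were higher in 2hr with TMM, 19.7% with RLE scaling, 19.3% with library totals, 28.9% without a filter on low counts, and 51.8% with TMM on genes of at least 10 CPM. The median of the 8494 genes of at least 10 CPM was -0.09 on the log2 scale with TMM and between -0.32 and 0.00 with the other scalings, so changes relative to that median are given too. A scaling shifts all genes of a library alike, so such relative changes stay nearly the same under any scaling by construction. Of the 10 genes, 1 passed, Hk2, and it was higher in 2hr cells. Their median log2 change was 0.31, and that of all genes tested was 0.39. At an unadjusted p under 0.05, 4 of the 10 were higher in 2hr (Hk2, Pfkfb3, Slc16a1 and Slc2a1) and none was lower, against 9.08% of all genes higher and 11.5% lower. DESeq2 called Hk2 higher and Slc2a3 lower, against 3.2% of genes higher and 23.2% lower. In these same 4 genes every 2hr library lay above every T0 library, which was so for 15.4% of all genes tested, and in none of the 10 did the 2hr libraries lie below, against 13.6% of all genes. In each of the 10 genes, 2hr replicate 1 gave the lowest and 2hr replicate 3 the highest value of its group.

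**Figure D1:**
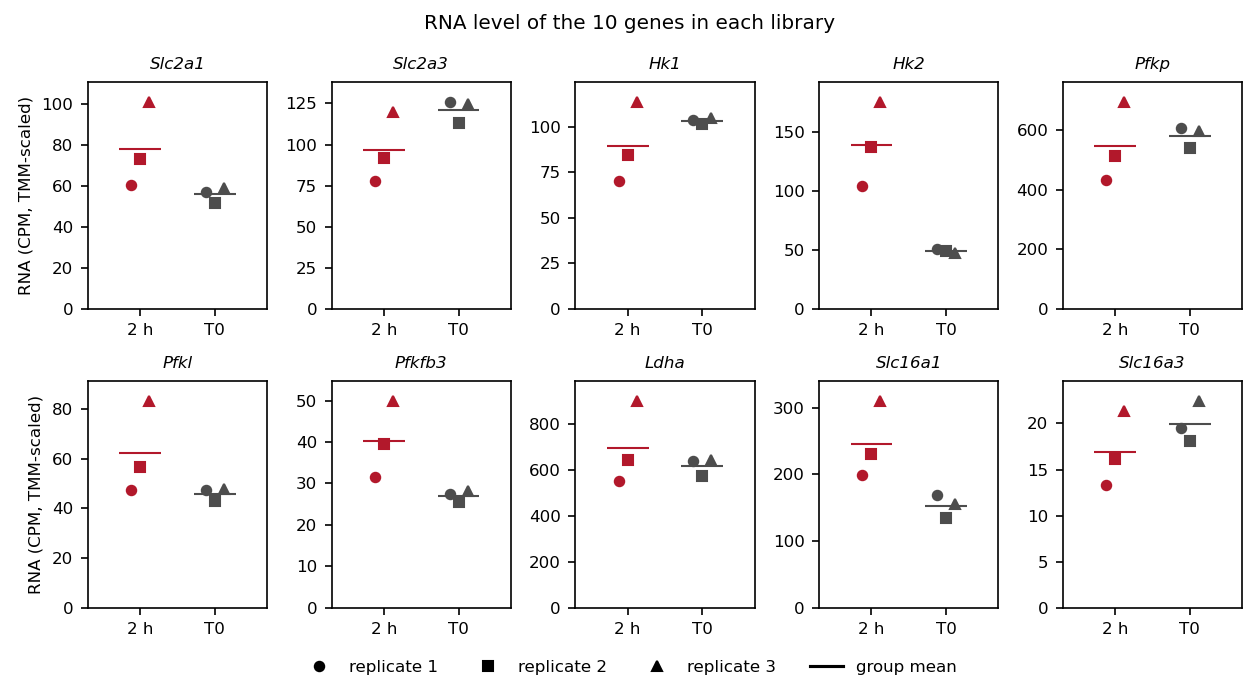
RNA level of each of the 10 genes in TMM-scaled CPM, on axes that start at 0, in the 3 libraries of 2hr cells (left) and the 3 of T0 cells (right); symbols give the replicate and lines the group means. Hk2 separates the groups most, with 104 to 175 CPM in 2hr and 47.6 to 50.8 CPM in T0 libraries, and the 2hr libraries are spread wider than the T0 libraries in every panel.

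The second fit took only the 8494 genes of at least 10 CPM on average in RNA, for scaling, dispersion and adjustment, and was chosen after the first had been seen. There the 2hr libraries lay closer together and 73.3% of the genes passed, 36.9% higher and 36.4% lower in 2hr. Of the 10 genes, 6 passed as higher in 2hr (Hk2, Slc16a1, Pfkfb3, Slc2a1, Pfkl and Ldha), 2 passed as lower (Slc2a3 and Hk1), and Pfkp and Slc16a3 did not pass. A share of 8 in 10 is near the background of 73.3%, so the count itself is not a result about these genes. Every 2hr library lay above every T0 library in the 6 higher genes, against 38% of all genes in this fit, and below in Slc2a3, Hk1 and Slc16a3, against 38.1%. Leaving out T0 replicate 2 from the fit on all genes gave 7 of the 10 past the threshold among 13024 genes called, most of the 21957 genes of the table. Leaving out 2hr replicate 3 gave 6 among 5255, while the other 4 omissions gave 1 each. The share of genes tested is not given for these omissions, so their counts are not read as results about the 10 genes.

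The pair of glucose transporters had changes of opposite sign. Slc2a1, the transporter GLUT1 that many cells raise on growth signals (ENSMUSG00000028645, chromosome 4, 119108745 to 119137330 on GRCm38), had 60.5, 73.4 and 101 CPM in 2hr replicates 1, 2 and 3, against 57.2, 51.9 and 59.2 CPM in T0 replicates. All 3 of its 2hr values were above its T0 values, 2hr replicate 1 only just. The log2 change was 0.48 ± 0.20 (SE) and did not pass (1.40-fold, adjusted p = 0.196), and it was 0.15 without T0 replicate 2, 0.25 without 2hr replicate 3 and 0.16 with DESeq2. Slc2a1 rose in the fit on genes of at least 10 CPM, by 0.57 ± 0.05 (adjusted p = 7.4e-06) with means of 81.4 ± 5.36 CPM in 2hr and 55.1 ± 1.60 CPM in T0 libraries (SD, n = 3 each). Slc2a3, the high-affinity transporter GLUT3 (ENSMUSG00000003153, chromosome 6, 122727809 to 122802363), had 78.0, 91.9 and 119.9 CPM in 2hr libraries, against 126, 113 and 125 CPM in T0 libraries. The groups overlapped through 2hr replicate 3, and the log2 change was -0.33 ± 0.19 (adjusted p = 0.327). It was -0.65 without T0 replicate 2 (adjusted p = 4.0e-05), -0.52 without 2hr replicate 3 (adjusted p = 0.00670) and -0.65 with DESeq2 (adjusted p = 0.0486), and Slc2a3 passed in 7 of 15 alternatives. In the fit on genes of at least 10 CPM, Slc2a3 fell by 0.24 on the log2 scale (SE 0.03, adjusted p = 1.4e-04), with 97.5, 104 and 102 CPM in 2hr and 119.7, 117 and 120.1 CPM in T0 libraries and no overlap. Relative to the median gene, the change of Slc2a1 was 0.56 to 0.57 and that of Slc2a3 -0.24 under the 5 scalings, which can hardly move such values.

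The hexokinases held the largest difference among the 10 genes. Hk2, the inducible hexokinase that can sit on the mitochondrial surface (ENSMUSG00000000628, chromosome 6, 82725025 to 82774454), had 104, 137 and 175 CPM in 2hr replicates 1, 2 and 3, against 50.8, 48.8 and 47.6 CPM in T0 replicates. Its lowest 2hr value lay far above its highest T0 value. Hk2 averaged 139 ± 35.7 CPM in 2hr and 49.1 ± 1.63 CPM in T0 cells (SD, n = 3 each), a rise of 1.50 ± 0.21 on the log2 scale (2.83-fold, adjusted p = 0.00146). It passed in all 15 alternative fits that tested it, with log2 changes of 1.19 to 1.59 and adjusted p-values of 4.4e-08 to 0.00682. Without the 3 RNA libraries with the largest share of olfactory, vomeronasal and defensin counts (2hr replicates 1 and 2 and T0 replicate 2), 1 library is left in the 2hr group, and the log2 change was 1.39. That value has no check of the spread between 2hr libraries. Hk1, the constitutive hexokinase (ENSMUSG00000037012, chromosome 10, 62268855 to 62379920), had 70.2, 84.8 and 114 CPM in 2hr libraries, against 104, 102 and 105 CPM in T0 libraries. The T0 values sat inside the 2hr range, and the log2 change was -0.21 ± 0.20 (adjusted p = 0.461), with a range of -0.52 to -0.12 over 15 alternatives, 5 of which called it. The largest leave-one-out value, -0.49, came without T0 replicate 2 (adjusted p = 6.6e-04), and -0.42 came without 2hr replicate 3 (adjusted p = 0.0134). In the fit on genes of at least 10 CPM, Hk1 fell by 0.12 on the log2 scale (SE 0.04, adjusted p = 0.0324) and Hk2 rose by 1.59 ± 0.07 (3.01-fold, adjusted p = 4.7e-08).

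The RefSeq promoters of these hexokinases and of Slc16a1 are shown because the pair moved unequally and Slc16a1 had the next largest change among the 10 genes. Each is the 250 bases before a RefSeq gene start on GRCm38.p6, 5′ to 3′ on the gene's strand. Capitals mark ACGTG, a form of the core of the hypoxia response element, and its reverse complement CACGT. They overlap in CACGTG, an E-box that Myc and other basic helix-loop-helix factors can bind. Other forms of the hypoxia core were not searched for. The Hk2 window (chr6:82774455-82774704, minus strand) holds ACGTG or its complement at 2 places, the 2 Hk1 windows (chr10:62379909-62380158 and chr10:62340422-62340671, minus strand) hold neither, and the Slc16a1 window (chr3:104638414-104638663, plus strand) holds CACGTG at a single place.
Hk2: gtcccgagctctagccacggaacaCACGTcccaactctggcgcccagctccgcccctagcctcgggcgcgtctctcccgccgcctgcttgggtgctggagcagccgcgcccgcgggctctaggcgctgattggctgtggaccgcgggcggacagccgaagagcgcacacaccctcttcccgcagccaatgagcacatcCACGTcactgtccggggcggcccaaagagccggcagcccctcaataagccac
Hk1 first start: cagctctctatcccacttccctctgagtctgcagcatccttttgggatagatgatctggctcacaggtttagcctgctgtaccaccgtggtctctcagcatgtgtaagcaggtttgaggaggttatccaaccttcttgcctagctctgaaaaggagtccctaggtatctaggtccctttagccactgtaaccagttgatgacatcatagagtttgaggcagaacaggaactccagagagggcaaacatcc
Hk1 second start: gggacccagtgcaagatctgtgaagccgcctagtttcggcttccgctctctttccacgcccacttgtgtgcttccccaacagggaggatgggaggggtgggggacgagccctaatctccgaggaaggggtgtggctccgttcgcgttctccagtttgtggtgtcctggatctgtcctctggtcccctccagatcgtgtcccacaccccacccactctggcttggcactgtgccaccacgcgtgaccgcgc
Slc16a1: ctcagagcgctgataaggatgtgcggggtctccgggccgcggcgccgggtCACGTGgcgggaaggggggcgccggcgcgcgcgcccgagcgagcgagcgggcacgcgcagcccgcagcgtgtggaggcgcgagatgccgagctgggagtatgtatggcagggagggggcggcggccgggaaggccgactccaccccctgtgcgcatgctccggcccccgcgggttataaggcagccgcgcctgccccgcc

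Of the 10 genes, 9 had at least 1 RefSeq window (12 windows in all), and Slc2a3 had none. On either strand, CACGTG was found in 3 of the 12 windows (1 each of Pfkfb3, Ldha and Slc16a1), against 6.02% of all 32851 mouse windows of the same length. ACGTG, which every CACGTG also contains, was found in 7 of the 12 (those of Slc2a1, Hk2, Slc16a1 and Slc16a3, both of Pfkfb3 and 1 of Ldha), against 16.6% of all windows. Pfkp, Pfkl and Hk1 had neither in their windows. A match describes these letters and says nothing of whether a factor binds there.

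**Figure D2:**
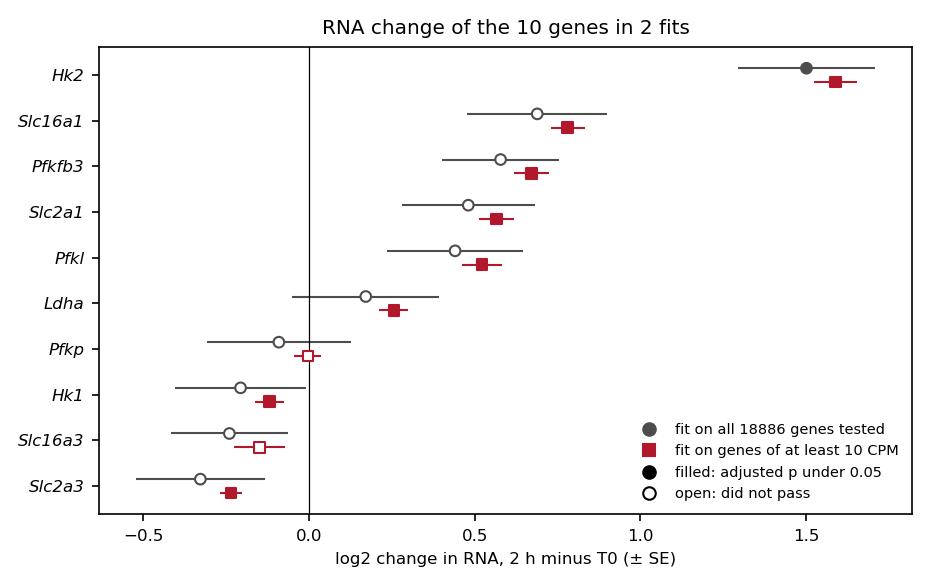
Log2 change in RNA (2hr minus T0, with its standard error) of the 10 genes in the fit on all 18886 genes tested and in the fit on genes of at least 10 CPM; filled symbols passed an adjusted p of 0.05. Hk2 lies farthest right in both fits, at 1.50 and 1.59, while Slc2a3, Hk1 and Slc16a3 lie left of 0 in both.

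At the phosphofructokinase step, the regulator Pfkfb3 and the isoenzyme Pfkl averaged higher in 2hr cells, while the isoenzyme Pfkp did not. Pfkfb3, the bifunctional enzyme whose kinase activity predominates (ENSMUSG00000026773, chromosome 2, 11471430 to 11554071), had 31.5, 39.4 and 49.8 CPM in 2hr libraries, against 27.3, 25.4 and 28.1 CPM in T0 libraries. Its groups did not overlap, and the change of 0.58 ± 0.18 (1.49-fold) missed the threshold with an adjusted p of 0.0700. It was 0.27 without T0 replicate 2 (adjusted p = 0.0177) and 0.26 with DESeq2 (adjusted p = 0.469). Pfkfb3 passed in the fit on genes of at least 10 CPM, with 0.67 ± 0.05 (adjusted p = 2.8e-06). Pfkl, the liver-type phosphofructokinase (ENSMUSG00000020277, chromosome 10, 77986947 to 78009807), had 47.3, 56.8 and 82.9 CPM in 2hr libraries, against 47.3, 42.9 and 47.6 CPM in T0 libraries. Its 2hr replicate 1 lay level with T0, and the change of 0.44 ± 0.21 did not pass (adjusted p = 0.252). It was 0.11 without T0 replicate 2, 0.17 without 2hr replicate 3 and 0.12 with DESeq2. With genes of at least 10 CPM alone, Pfkl rose by 0.52 ± 0.06 (adjusted p = 3.9e-05). Pfkp, the platelet-type phosphofructokinase (ENSMUSG00000021196, chromosome 13, 6579874 to 6649060), had 431, 513 and 694 CPM in 2hr libraries, against 608, 540.2 and 596 CPM in T0 libraries. All T0 values lay inside the 2hr range, and Pfkp did not pass in either fit (adjusted p = 0.764 on all genes and 0.945 on genes of at least 10 CPM), although without T0 replicate 2 it had -0.42 (adjusted p = 0.00675). Relative to the median gene its change was between -0.01 and 0.00 under the 5 scalings.

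Of the lactate genes, the exporter Slc16a1 had the largest difference between the groups. Slc16a1, the monocarboxylate transporter MCT1 (ENSMUSG00000032902, chromosome 3, 104638664 to 104658462), had 199, 230.0 and 309 CPM in 2hr libraries, against 169, 134 and 155 CPM in T0 libraries. All 2hr values were above all T0 values. It averaged 246 ± 56.9 CPM in 2hr and 153 ± 17.3 CPM in T0 cells (SD, n = 3 each), and the log2 change of 0.69 ± 0.21 (1.61-fold) missed the threshold with an adjusted p of 0.0700. It was 0.33 without T0 replicate 2 (adjusted p = 0.0141) and 0.36 with DESeq2 (adjusted p = 0.313). With genes of at least 10 CPM alone, Slc16a1 rose by 0.78 ± 0.05 (1.72-fold, adjusted p = 8.5e-07), with 249, 259 and 263 CPM in 2hr and 160.5, 139 and 149 CPM in T0 libraries. Slc16a3, the lactate exporter MCT4 of strongly glycolytic cells (ENSMUSG00000025161, chromosome 11, 120948484 to 120959000), had 13.4, 16.1 and 21.3 CPM in 2hr libraries, against 19.5, 18.1 and 22.4 CPM in T0 libraries. The groups overlapped, and Slc16a3 did not pass in either fit (adjusted p = 0.375 on all genes and 0.109 on genes of at least 10 CPM). Without T0 replicate 2 it had -0.57 (adjusted p = 1.9e-04) and without 2hr replicate 3 -0.45 (adjusted p = 0.0270).

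Ldha, the lactate dehydrogenase subunit that favours pyruvate reduction (ENSMUSG00000063229, chromosome 7, 46842274 to 46855627), had 550.3, 642 and 898 CPM in 2hr libraries, against 641, 572 and 643 CPM in T0 libraries. The T0 values lay inside the 2hr range. The log2 change of 0.17 ± 0.22 did not pass (adjusted p = 0.575), and its sign turned with RLE scaling (-0.06), with library totals (-0.02), with DESeq2 (-0.15) and without T0 replicate 2 (-0.16) or 2hr replicate 3 (-0.06). Relative to the median gene, Ldha stood 0.25 to 0.26 higher in 2hr, a value that the 5 scalings could hardly move. Ldha passed in the fit on genes of at least 10 CPM (0.26 ± 0.04, adjusted p = 5.1e-04). Ldha has processed pseudogenes, and how reads shared with them were counted is not given in the sources used here.

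Within a library, the share of a pair's counts held by each isoenzyme does not depend on the scaling. Hk2 held 59.7, 61.8 and 60.7% of the counts of Hk2 and Hk1 in 2hr libraries, against 32.9, 32.5 and 31.2% in T0 libraries. The majority of the pair's counts thus came from Hk2 in each 2hr library and from Hk1 in each T0 library, and the difference of 28.5 percentage points was far larger than the SDs of 1.09 and 0.861 points. Slc2a1 held 43.7, 44.4 and 45.7% of the counts of Slc2a1 and Slc2a3 in 2hr libraries, against 31.3, 31.5 and 32.1% in T0 libraries, a difference of 13.0 points. Slc16a1 held 93.7, 93.5 and 93.5% of the counts of Slc16a1 and Slc16a3 in 2hr libraries, against 89.6, 88.1 and 87.4% in T0 libraries, a difference of 5.19 points. Pfkl held 9.91, 9.96 and 10.7% of the counts of Pfkl and Pfkp in 2hr libraries, against 7.23, 7.35 and 7.40% in T0 libraries, a difference of 2.86 points. In all 4 pairs the groups did not overlap, and leaving out any single library kept each difference between 27.98 and 29.06 points for Hk2 and within 2.61 to 2.996 points for Pfkl. How often other pairs of genes separate in this way was not computed. Single genes often did: scaled on genes of at least 10 CPM, 38% lay above in 2hr without overlap and 38.1% below. An exact two-sided permutation test gave p = 0.1 for each pair, the smallest that 3 libraries against 3 allow, and 0.1 after adjustment over the 4 pairs. These are shares of counts and not of molecules, since coding lengths were not used.

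**Figure D3:**
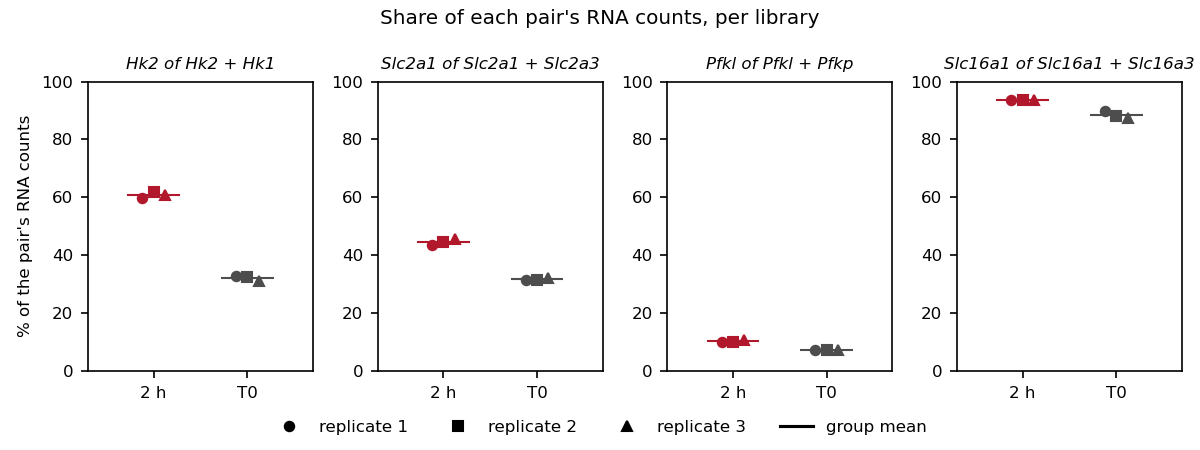
Percent of the RNA counts of 4 pairs of related genes that fell on Hk2, Slc2a1, Pfkl and Slc16a1, per library of 2hr cells (left) and T0 cells (right), with lines at the group means. The 3 libraries of a group lie close together and the groups are apart in every panel, with 59.7 to 61.8% in 2hr and 31.2 to 32.9% in T0 libraries for Hk2.

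Footprints on these genes were few, 205 in all 5 libraries together. They numbered 52 and 67 in 2hr replicates 2 and 3, against 29, 24 and 33 in T0 replicates 1, 2 and 3. Only Pfkp passed the filter on low counts, so the other 9 genes had no footprint test in the main fit. Pfkp had 23 and 18 footprints in 2hr replicates 2 and 3, against 11, 3 and 4 in T0 replicates 1, 2 and 3. Scaled to library size these were 1064 and 749 CPM in 2hr and 1144, 198 and 248 CPM in T0 libraries, so T0 replicate 1 lay above both 2hr libraries; no overlap with the 2hr libraries above was seen in 20.7% of the genes tested and below in 18%. The log2 change in footprints was 0.94 ± 0.57 and did not pass (adjusted p = 0.349), in a fit where 9.38% of 256 genes passed, 5.86% higher and 3.52% lower in 2hr. The change in footprints beyond that in RNA, tested as an interaction over all 11 libraries, was 0.99 ± 0.47 (unadjusted p = 0.0470, adjusted p = 0.230), in a fit where 3.14% of 255 genes passed, 1.57% higher and 1.57% lower in 2hr. Without T0 footprint replicate 1 the interaction was 1.94 with an adjusted p of 0.0170, and without T0 replicate 2 it was 0.56. Thus 1 library decides the size of the interaction. With T0 replicate 1 left out, the remaining T0 libraries held 3 and 4 Pfkp footprints, under the minimum count of the filter. Pfkp then passed the filter only through its 23 and 18 footprints in 2hr libraries. The adjusted p of 0.0170 belongs to a gene selected on its 2hr level, so no conclusion is drawn from it. With all T0 libraries in, only T0 replicate 1 among them reached that minimum, so Pfkp needed its 2hr footprints to pass there as well. The same limit therefore holds for the footprint change of 0.94 and the interaction of 0.99.

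Among the genes too sparse for that test, counts went either way. Slc16a1 had 9 and 14 footprints in 2hr libraries, against 5, 4 and 0 in T0 libraries, and Ldha had 9 and 12 in 2hr, against 2, 4 and 7 in T0 libraries. The 2hr libraries were also deeper, and after scaling both genes overlapped: Slc16a1 had 416 and 583 CPM in 2hr and 520.2, 264 and 0 CPM in T0 libraries, and Ldha 416 and 499.6 CPM in 2hr and 208, 264 and 434 CPM in T0 libraries. Hk2 had 1 and 6 footprints in 2hr libraries, against 0, 0 and 3 in T0 libraries, and Hk1 had 7 and 10 in 2hr, against 4, 2 and 7 in T0 libraries. Slc2a3 had 2 and 0 footprints in 2hr libraries, against 3, 7 and 3 in T0 libraries, and Slc2a1 had 0 and 3 in 2hr, against 0, 2 and 1 in T0 libraries. Pfkl had 0 and 3 footprints in 2hr libraries, against 2, 1 and 6 in T0 libraries, and Pfkfb3 had 1 and 1 in 2hr, against 2, 1 and 2 in T0 libraries. After scaling, Slc2a3 (92.5 and 0 CPM in 2hr, 312, 462 and 186 in T0) and Pfkfb3 (46.2 and 41.6 CPM in 2hr, 208, 66.0 and 124 in T0) lay lower in 2hr without overlap. The other genes of the 10 overlapped, and the unscaled counts of Pfkfb3 overlapped too. Of the 256 genes tested in footprints, 18% lay below without overlap, but Slc2a3 and Pfkfb3 were too sparse to be among them. How often genes this sparse separate in this way was not computed. Slc16a3 had 0 in every library, which allows up to 67.4 CPM in the pooled 2hr and 73.3 CPM in the pooled T0 footprints, limits above its RNA level in both groups. Without the filter, edgeR gave log2 changes of 1.28 for Pfkp (adjusted p = 0.763), -2.42 for Slc2a3 and 1.41 for Slc16a1, no adjusted p was lower than that of Pfkp, and only Pfkp was under 0.05 before adjustment. DESeq2 called none of the 10 in footprints.

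**Figure D4:**
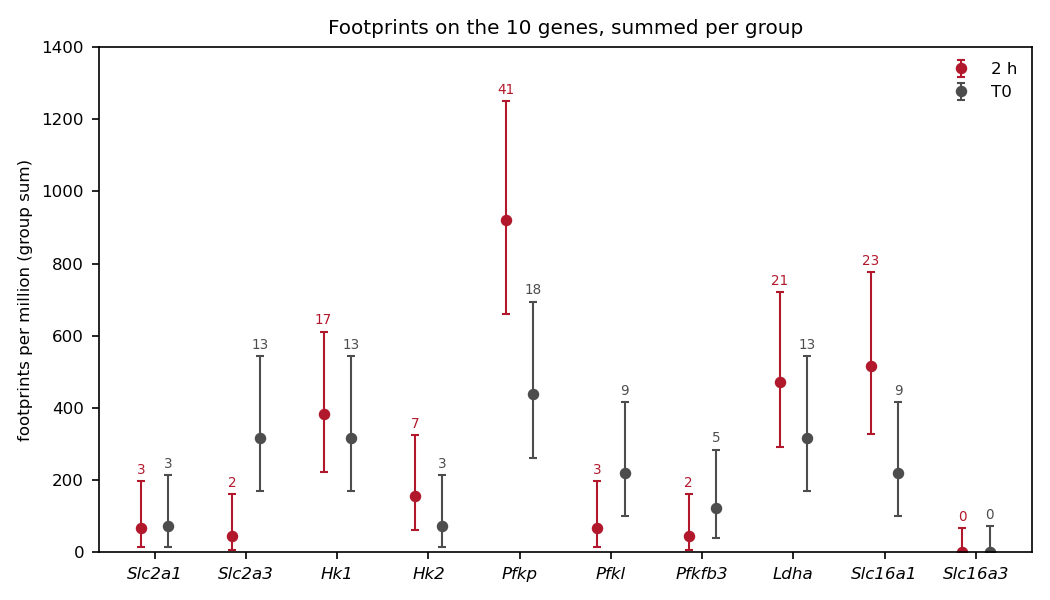
Footprint CPM on each of the 10 genes, summed over the 2 libraries of 2hr cells (left in each pair) and the 3 libraries of T0 cells (right), with exact Poisson 95% intervals (for 0 counts, the limit of 3 counts) and the summed counts above them. Pfkp stands highest, with 41 footprints in 2hr and 18 in T0 cells, and Slc16a3 had 0 in both.

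The ratio of pooled footprint CPM to RNA CPM sets each gene against the median of 0.878 in 2hr and 0.775 in T0 cells over the 8494 genes of at least 10 CPM, of which 31.0% had no footprint in 2hr and 29.0% none in T0 cells. Intervals are exact Poisson 95% intervals and, like the limits for 0 counts, cover counting error only. Pfkp stood at 1.82 (1.30 to 2.46) in 2hr and 0.713 (0.423 to 1.13) in T0 cells, intervals that do not overlap, although T0 replicate 1 alone lay above both 2hr libraries in footprint CPM. Hk1 stood at 4.59 (2.67 to 7.35) in 2hr and 2.90 (1.54 to 4.96) in T0 cells, both above the median gene. Hk2 stood at 1.22 (0.490 to 2.51) in 2hr and 1.41 (0.291 to 4.12) in T0 cells, so a difference in its footprints per RNA was not detectable at this depth. Slc16a1 stood at 2.26 (1.43 to 3.38) in 2hr and 1.36 (0.620 to 2.57) in T0 cells, and Ldha at 0.729 (0.451 to 1.11) in 2hr and 0.484 (0.258 to 0.827) in T0 cells. Their intervals overlap between the groups. Slc2a3 stood at 0.499 (0.0605 to 1.80) in 2hr and 2.47 (1.31 to 4.22) in T0 cells, and Pfkl at 1.17 (0.241 to 3.41) in 2hr and 4.51 (2.06 to 8.57) in T0 cells, the reverse order of Pfkp. Intervals were as wide for Slc2a1, at 0.927 (0.191 to 2.71) in 2hr and 1.23 (0.254 to 3.60) in T0 cells, and for Pfkfb3, at 1.20 (0.145 to 4.33) in 2hr and 4.27 (1.39 to 9.97) in T0 cells.

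The shares of the same 4 pairs in footprints rest on 5 to 44 counts a group, and their intervals cover counting error only. Hk2 held 7 of the 24 footprints on Hk2 and Hk1 in 2hr (29.2%, exact binomial 95% interval 12.6 to 51.1%) and 3 of 16 in T0 cells (18.8%, 4.05 to 45.6%). In 2hr cells the share of Hk2 was 60.7% in RNA, and the difference between the assays was not tested; its footprints were 1 and 6 in the 2hr libraries, beside 7 and 10 of Hk1. Slc2a1 held 3 of the 5 footprints on Slc2a1 and Slc2a3 in 2hr (14.7 to 94.7%) and 3 of 16 in T0 cells (4.05 to 45.6%), and all footprints on Slc16a1 and Slc16a3 were on Slc16a1, 23 of 23 in 2hr and 9 of 9 in T0 cells. Pfkl held 3 of the 44 footprints on Pfkl and Pfkp in 2hr (6.82%, 1.43 to 18.7%) and 9 of 27 in T0 cells (33.3%, 16.5 to 54.0%), of which 6 came from T0 replicate 3. In RNA the share of Pfkl was higher in 2hr cells, the opposite order.

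The rest of the pathway was described from lists of enzymes, transporters and regulators. None of the 23 other glycolytic enzymes passed in edgeR, 2 had an unadjusted p under 0.05, and their median log2 change was -0.05. DESeq2 called 3 of the 18 that it gave an adjusted p, all lower in 2hr (Eno1, Pfkfb1 and Pfkfb2, named after their values were seen). Over all genes DESeq2 called 23.2% lower and 3.2% higher, so that count is not a result about these enzymes. The group means of the most abundant were within 1 SD of the 2hr libraries: Pkm, which makes pyruvate, averaged 784 ± 190.0 CPM in 2hr and 781 ± 48.0 CPM in T0 cells, the aldolase Aldoa 423 ± 107 CPM in 2hr and 444 ± 20.1 CPM in T0 cells, and the isomerase Gpi1 292 ± 76.8 CPM in 2hr and 335 ± 19.0 CPM in T0 cells (SD, n = 3 each). In the fit on genes of at least 10 CPM, 2 of 10 rose, against 36.9% of all genes in that fit (Pgam1 by 0.43 and Adpgk by 0.38) and 2 fell, against 36.4% (Eno1 by 0.33 and Eno3 by 0.26), and the median was 0.01.

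None of the 10 other transporters and partners passed in edgeR, and 2 had an unadjusted p under 0.05. DESeq2 called 2 of the 6 that it gave an adjusted p as lower, against 23.2% of all genes (Emb and Slc2a8, the second named after its value was seen). Emb and Bsg encode embigin and basigin, which bring monocarboxylate transporters to the cell surface. Emb had 219, 239 and 312 CPM in 2hr libraries, against 422, 370.0 and 413 CPM in T0 libraries, with no overlap and a log2 change of -0.64 ± 0.20 (adjusted p = 0.0757), and it passed in 8 of 15 alternatives (-0.97 to -0.55). Bsg had a log2 change of -0.27 (adjusted p = 0.393), and the glucose transporter Slc2a6 of -0.28 (adjusted p = 0.370). With genes of at least 10 CPM alone, Emb fell by 0.55 and Bsg by 0.18, beside the rise of Slc16a1.

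None of the 12 genes of mitochondrial pyruvate entry passed in edgeR, 1 had an unadjusted p under 0.05 (Pdp1), and DESeq2 called none. The pyruvate dehydrogenase subunits Pdha1 and Pdhb had log2 changes of 0.06 and -0.05, and the kinase Pdk1 that inhibits them had -0.29. In the fit on genes of at least 10 CPM, 7 of 10 rose, against 36.9% of all genes in that fit, led by the phosphatases Pdp1 (0.61 ± 0.06) and Pdp2 (0.46), which activate the complex, and by the pyruvate carrier subunit Mpc1 (0.32). In that fit 2 fell, the kinases Pdk1 (by 0.18) and Pdk3 (by 0.12), against 36.4% of all genes. The 9 of 10 that passed in either direction are near the 73.3% of all genes there.

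Regulators of glucose use held 4 of 14 genes that passed, 3 higher and 1 lower in 2hr, against 3.58% of all genes tested higher and 4.68% lower. The list was chosen with earlier results of these data known, so its count is not independent of them. Myc, a transcription factor that drives glycolytic genes, had 576, 749 and 918 CPM in 2hr libraries, against 208, 209.9 and 213 CPM in T0 libraries. It rose by 1.83 ± 0.22 (3.55-fold, adjusted p = 5.5e-04). Egln3, a prolyl hydroxylase that marks the hypoxia factor Hif1a for degradation, rose by 1.69 ± 0.16 (adjusted p = 1.1e-04), with 20.2 ± 3.96 CPM in 2hr and 6.25 ± 0.380 CPM in T0 cells. Txnip, an arrestin-like protein that takes glucose transporters off the surface, had 180.1, 183 and 283 CPM in 2hr libraries, against 547, 534 and 555 CPM in T0 libraries. Txnip fell by 1.34 on the log2 scale (SE 0.22, 2.53-fold lower, adjusted p = 0.00419), and no 2hr library reached the T0 range. Tigar, a phosphatase that lowers phosphofructokinase activity, rose by 0.82 ± 0.17 (adjusted p = 0.0117), a call lost with RLE scaling (adjusted p = 0.112), with DESeq2 (0.174), with no filter (0.0696), and without T0 replicate 3 (0.106), 2hr replicate 1 (0.0884) or 2hr replicate 2 (0.193). Hif1a had 0.44 ± 0.20 (adjusted p = 0.252) and rose by 0.54 ± 0.04 in the fit on genes of at least 10 CPM.

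**Figure D5:**
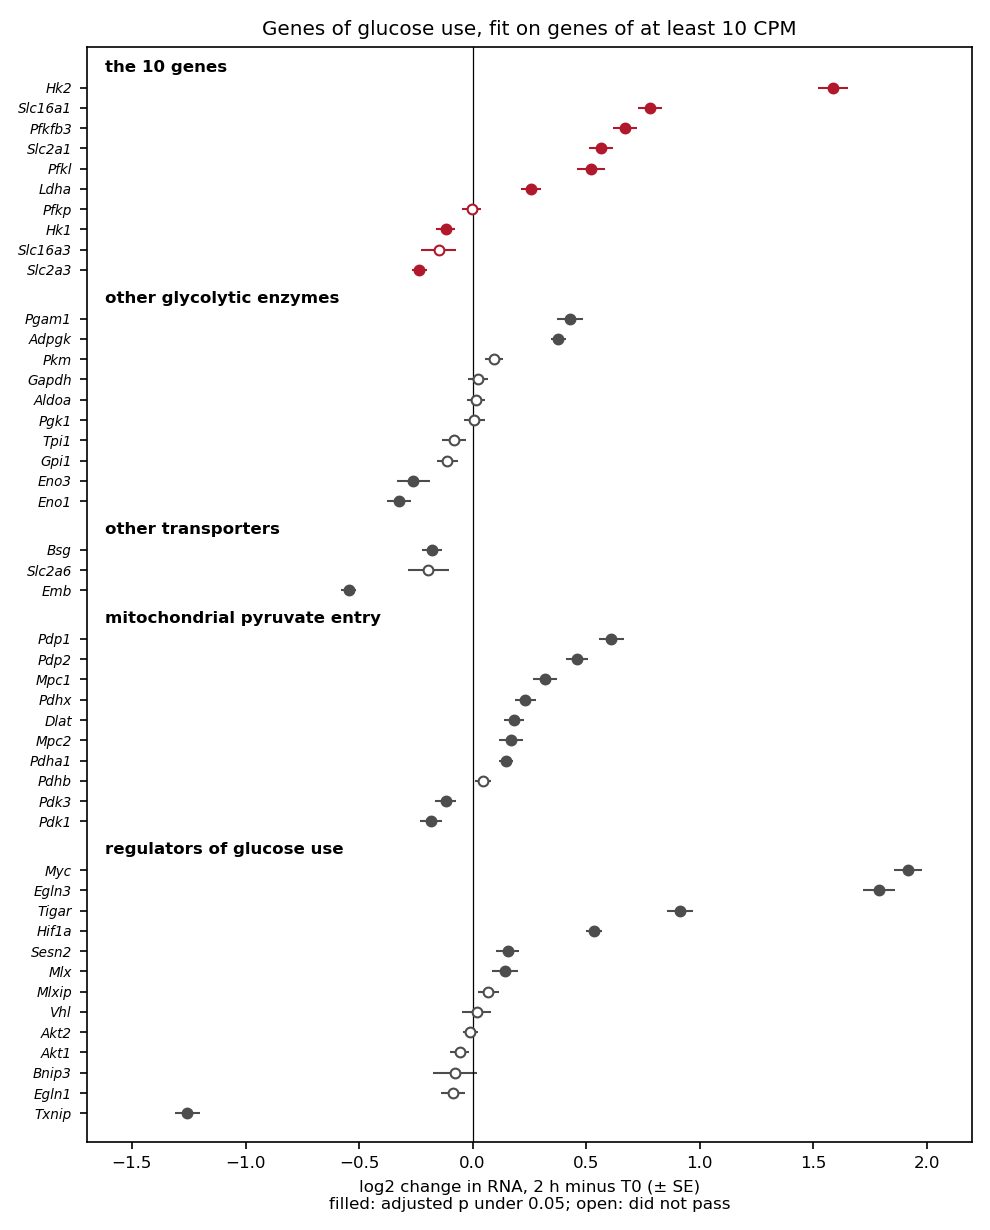
Log2 change in RNA (2hr minus T0, with its standard error) of the 10 genes and of the other listed pathway genes, grouped by list, in the fit on genes of at least 10 CPM; filled symbols passed an adjusted p of 0.05. Myc (1.92), Egln3 (1.79) and Hk2 (1.59) lie farthest right and Txnip (-1.26) farthest left, while most of the other glycolytic enzymes lie near 0.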

How the data were processed

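Each of the 11 libraries was deposited as whole-number counts for 21957 genes, taken over coding sequence and not normalized. STAR 2.5 and the mouse build mm10 (GRCm38) are named in the submitters' processing notes. The counting tool, annotation, strand handling and read filters are not given in the sources used here. The series table and the single files hold the same 241527 values. Symbols and positions came from the RefSeq annotation of GRCm38, which named 21838 identifiers; Aldoa matched 2, and the identifier with more counts was used.

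Each assay was fitted with edgeR 4.0.16 in R 4.3.3 (TMM, filterByExpr with a minimum count of 10 and total of 15, quasi-likelihood F test, two-sided). Footprints against RNA were tested as an interaction over all 11 libraries, with TMM within each assay. Adjusted p-values are Benjamini-Hochberg over all genes tested, standard errors come from the F statistic, and the threshold is 0.05. Groups followed the labels. Shares of a pair's counts were compared with exact permutation tests. The tests were also run on simulated counts, with the same fixed spread for all genes and no background share that varied between libraries. That run cannot show how the tests behave at the spread of these libraries.

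The 10 genes and the other lists were chosen with earlier results of these data known. Named beside the 10 are up to 6 genes per list that passed in a comparison, or otherwise the 3 most abundant. Genes named from the fit on genes of at least 10 CPM alone (Pgam1, Adpgk, Eno1, Eno3, Pdp1, Pdp2, Mpc1, Pdk3, Hif1a), and those marked in the text, were named after their values were seen. Alternatives were DESeq2 1.42.0, other scalings, no filter, the replicate number as a blocking term, omission of single libraries, and RNA thinned to 15237 counts. The fit on genes of at least 10 CPM and the omission of 3 libraries were added after seeing the data. With 11136 to 23641 footprints a library, a count of 0 allows up to 3, and few of the 10 genes could be tested in footprints.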

Additional observations from a re-analysis of the deposited data

Results flagged for a closer look

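The change of Myc in footprints differed from its change in RNA by -1.18 on the log2 scale (SE 0.32, edgeR quasi-likelihood interaction, adjusted p = 0.0458), and this test of the difference between the assays flagged it. In RNA, Myc rose by 1.83 ± 0.22 (adjusted p = 5.5e-04), and its footprints had a log2 change of 0.76 ± 0.37 (adjusted p = 0.208). The call held in 6 of 18 alternatives, with log2 values of -1.46 to -0.73 over all 18. None of the 10 glucose and lactate genes met a flagging rule.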

How the results depend on the processing

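In RNA, 1560 genes and 1 of the 10 (Hk2) passed. These counts were 2912 and 2 with DESeq2 (Slc2a3 added, -0.65), 5220 and 6 with library totals, 6080 and 7 with TMM on genes of at least 10 CPM, 6228 and 8 with those genes alone, 7341 and 9 without the 3 libraries with most background (which leaves 1 library in the 2hr group, assumed to vary like the T0 libraries), 17 and 0 with RNA thinned to footprint depth, and 583 to 13024 and 1 to 7 with a library left out. In footprints 24 genes passed, 13 with DESeq2, 11 without a filter and 12 to 30 with a library left out, and 0 of the 10 passed under each of these. For footprints against RNA 8 passed, 40 with DESeq2, 15 with library totals, 4 without a filter and 0 to 9 with a library left out, of the 10 genes 0 to 1. Whether the replicate numbers pair the libraries was not settled: same-numbered libraries deviated together with r = -0.40, 0.30 and 0.62 in RNA and 0.01 and -0.12 in footprints. Differently numbered libraries were not compared for reference. With the replicate number as a block, 2404 genes and 2 of the 10 (Pfkfb3 added, 0.56) passed in RNA. In footprints that block gave 26 genes and 1 of the 10 (Pfkp, 1.97, adjusted p = 0.0357). Footprint replicate 1 has a T0 library alone, so its block term takes up that library. The blocked footprint change of Pfkp thus rests on the other libraries, as when T0 replicate 1 is left out, and no conclusion is drawn from it.

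Signs turned only among changes that did not pass on all genes, and the cause was not tested. DESeq2 gave -0.15 for Ldha, -0.26 for Pdha1 and -0.32 for Pkm, RLE scaling -0.060, -0.17 and -0.22 for the same genes, and library totals -0.019, -0.13 and -0.18. Without a filter Pdha1 had -0.10 and Pkm -0.15, with the block Pkm had -0.019, and without the 3 libraries Pdha1 had -0.11 and Pkm -0.15. TMM on genes of at least 10 CPM, and those genes alone, gave 0.047 for Pdhb and 0.015 for Aldoa. With a library left out, Ldha ranged over -0.16 to 0.15, Pdha1 over -0.25 to 0.025 and Pkm over -0.32 to -0.020. Of 511 alternative values, 351 were classed as the same as the main value. For log2 changes that class means the same direction and side of the threshold. The 511 also hold counts of genes called and differences in shares, to which that meaning does not apply. Shares were taken of counts, so the planned comparison with length-scaled shares was not run. Footprint depth limits all 10 genes: RNA thinned to that depth left Pfkp alone testable.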

Other observations

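The shares of the 10 genes in their summed RNA counts do not depend on library scaling. Hk2 made up 6.89 ± 0.370% of their summed RNA counts in 2hr and 2.77 ± 0.183% in T0 cells, and Slc16a1 made up 12.3 ± 0.257% in 2hr and 8.58 ± 0.495% in T0 cells (SD, n = 3 each). Pfkp, the isoenzyme with the most phosphofructokinase counts, made up 27.1 ± 0.0954% in 2hr and 32.7 ± 0.147% in T0 cells, with no overlap. Ldha made up 34.6 ± 0.485% in 2hr and 34.9 ± 0.279% in T0 cells, and its groups overlapped. Slc2a1, Pfkl and Pfkfb3 also had higher shares in 2hr cells without overlap, and Slc2a3, Hk1 and Slc16a3 had lower ones without overlap. These shares are bound to sum to the same total, so higher shares of some genes must come with lower shares of others. How often other sets of 10 genes change as much was not computed, and 73.3% of all genes passed in the fit on genes of at least 10 CPM.

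All 10 genes together took 1658, 1825 and 2130 CPM of the unscaled RNA totals in 2hr replicates 1, 2 and 3, against 1988, 1703 and 1958 in T0 replicates. In footprints they took 2494 and 2834 CPM in 2hr replicates 2 and 3, against 2604, 1647 and 2166 in T0 replicates 1, 2 and 3. The groups overlapped in both assays.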
